A study of Mus musculus with 4 samples.

Results

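Cxcr4, Il7r and 5 genes of the glucocorticoid response (Tsc22d3, Per1, Fkbp5, Sgk1 and Nr3c1) were followed by name through the count tables, 7 of 32285 listed genes. They were selected on their measured 12-day and 7-week levels in these same libraries, so their age ratios are given as descriptions. The cells were CD4+ Foxp3GFP+ regulatory T (Treg) cells, the T cells that restrain immune responses under the control of the transcription factor Foxp3. They were enriched on CD4 beads and flow-sorted from the liver and the spleen. There were 4 libraries, 1 each of 12-day liver, 12-day spleen, 7-week liver and 7-week spleen, made with a kit that reads the 5′ ends of transcripts. All mice were described as C57BL/6 animals carrying Foxp3GFP. The series text adds that the 12-day mice were Foxp3GFP-Cre Rosa26loxP-Stop-loxP-YFP and gives no further allele for the 7-week mice, which the labels call aged. If the genotypes did differ, that difference cannot be told apart from age in the age ratios below. The number and sex of the mice behind each library are not given in the sources used here. With 1 library per group no test between groups was possible, and every interval below covers counting error only.

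CXCR4 is the receptor for the chemokine CXCL12, known for holding lymphocytes and their precursors in bone marrow and other niches. IL7R is the alpha chain of the receptor for IL-7, a survival signal of resting T cells, and in Treg cells it is usually kept low by Foxp3. Glucocorticoids enter the cell, bind the receptor encoded by Nr3c1 and release it from heat shock protein 90 and its partner proteins; the receptor then binds DNA, classically at a palindrome made of TGTTCT and its reverse complement. Tsc22d3 (which encodes GILZ), Per1, Fkbp5 and Sgk1 are among its well-known target genes, and Il7r and Cxcr4 are raised by glucocorticoids in T cells. Foxo1 and Klf2, transcription factors of resting T cells, also act on Il7r and on homing receptors such as Ccr7.

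The genes lie apart in the genome. In the GENCODE vM21 annotation of GRCm38, all 7 are protein coding. Cxcr4 spans chr1:128588199-128592293 and Il7r spans chr15:9505788-9530176, both on the minus strand. Tsc22d3 spans chrX:140539528-140600659 on the minus strand, Per1 chr11:69095217-69109960 on the plus strand, Sgk1 chr10:21882184-21999903 on the plus strand, and Fkbp5 chr17:28399094-28517527 on the minus strand. Fkbp5 overlaps 4 other annotated genes, 1 of them antisense, and its counts could hold some of their reads. None of the other 6 overlaps another annotated gene.

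The 250 bases before the start sites in RefSeq's promoter table (GRCm38.p6) are shown for 4 of the genes, to set the letters of the receptor's binding motif beside genes that did and did not differ between ages. Capitals mark matches, on either strand, to the palindrome (AGAACA and TGTTCT with 3 bases between them), to either arm of it alone, or to the E-box CACGTG, which circadian clock factors bind. The windows are chr1:128592300-128592549 (minus strand) for Cxcr4, chrX:140548572-140548821 (minus strand) for 1 of 3 start sites of Tsc22d3, chr17:28486150-28486399 (minus strand) for Fkbp5, and chr10:21993640-21993889 (plus strand) for 1 of 6 start sites of Sgk1.
Cxcr4: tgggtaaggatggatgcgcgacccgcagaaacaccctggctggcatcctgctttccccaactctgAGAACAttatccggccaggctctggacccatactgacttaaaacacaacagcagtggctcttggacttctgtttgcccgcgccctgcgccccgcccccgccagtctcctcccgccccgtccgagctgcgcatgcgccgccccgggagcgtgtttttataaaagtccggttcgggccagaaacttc
Tsc22d3: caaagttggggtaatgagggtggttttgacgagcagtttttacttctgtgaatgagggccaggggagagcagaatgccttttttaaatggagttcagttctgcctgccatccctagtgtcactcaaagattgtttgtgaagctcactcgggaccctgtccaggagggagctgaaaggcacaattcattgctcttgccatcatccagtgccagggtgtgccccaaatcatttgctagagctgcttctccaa
Fkbp5: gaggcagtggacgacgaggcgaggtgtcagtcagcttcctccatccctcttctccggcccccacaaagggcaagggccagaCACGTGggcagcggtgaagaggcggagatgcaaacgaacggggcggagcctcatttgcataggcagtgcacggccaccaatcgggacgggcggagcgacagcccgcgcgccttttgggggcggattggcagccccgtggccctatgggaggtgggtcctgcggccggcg
Sgk1: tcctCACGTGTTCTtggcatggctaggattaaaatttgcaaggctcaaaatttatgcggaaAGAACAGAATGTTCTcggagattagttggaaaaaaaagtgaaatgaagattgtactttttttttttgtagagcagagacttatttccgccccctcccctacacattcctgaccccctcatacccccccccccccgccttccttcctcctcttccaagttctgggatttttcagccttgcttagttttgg
The Sgk1 window held the whole palindrome, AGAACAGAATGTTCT, 189 bases before the start site, where its 2 single arms overlap it. A further single arm there overlaps an E-box. A whole palindrome was found in 3 of 32851 such windows, or 0.00913%. The Cxcr4 window held 1 single arm, a match found in 16.1% of windows. The Fkbp5 window held 1 E-box, found in 6.02% of windows. The Tsc22d3 window shown held none of these motifs, and another of its 3 windows held a single arm. One more motif, TGTTTAC or GTAAACA, which Foxo factors bind, was in none of 14 windows of the 6 genes searched and in 3.17% of all windows. Only the bases of these windows were searched, so a motif farther from a start site would not be seen. The windows therefore cannot tell which genes the receptor acts on.

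The libraries differed in depth. After filtering, 5342, 5677, 2336 and 5677 cells were retained of 8055, 7720, 2608 and 6163 barcodes from 12-day liver, 12-day spleen, 7-week liver and 7-week spleen, with medians of 4417.5, 4524, 2634 and 2905 UMIs (counted transcript molecules) per cell. Levels are UMIs per 1000000 UMIs summed over a library's retained cells (CPM). Foxp3 itself ranged over the libraries from 409 to 467 CPM and Cd3e from 1205 to 1452 CPM. Between 41 and 205 cells per library in clusters led by genes of other blood cells were left out. Of the 41 in 7-week liver, 39 were from an NK cell and ILC-like cluster. Its leading genes included the T cell receptor genes Tcrg-V4 and Tcrg-C4, so its Cd3e, at 1538 CPM there, can be its own. The other clusters left out still carried T cell RNA, for example Foxp3 at 409 CPM and Cd3e at 1256 CPM in 103 macrophage and monocyte-like cells of 12-day spleen. No cell type free of the 7 genes was therefore at hand to measure free RNA. Of cell barcodes, between 23 and 91 were shared by each pair of libraries.

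Cxcr4 had the highest age ratio of the 7 genes in both tissues. It was counted at 3.22 CPM in 12-day liver (93 UMIs), 2.53 CPM in 12-day spleen (76 UMIs), 27.0 CPM in 7-week liver (189 UMIs) and 18.9 CPM in 7-week spleen (355 UMIs). Both 12-day libraries were low and both 7-week libraries high, and the intervals of the 2 ages did not overlap. The 7-week level was 8.40 times the 12-day level in liver (95% interval 6.52 to 10.9) and 7.5005 times in spleen (5.84 to 9.74). In liver, 4 of 5247 genes with 25 CPM or more in either library had a lower ratio of 12 days to 7 weeks. After each cell was thinned to 1000 UMIs, 0.330%, 0.314%, 3.39% and 2.43% of cells held a Cxcr4 UMI, in the order above, shares too low to tell more cells from more RNA per cell. The cells of other lineages that were left out held 0, 2, 1 and 5 Cxcr4 UMIs in 71, 205, 41 and 58 cells. In the retained cells the 9 listed macrophage and monocyte markers summed to 8.69, 6.31, 2.72 and 6.78 CPM in the same order, and the 6 neutrophil markers to between 0.213 and 0.588 CPM. The 9 dendritic cell markers summed to 247 and 202 CPM in 12-day liver and spleen and to 396 and 300 CPM in 7-week liver and spleen. Cst3 and Bst2 led that sum, and between 2 and 4 of the 9 were at 0 in each library, Siglech, Clec9a and Itgax among them in both 7-week libraries. Their part in the Cxcr4 levels was not tested.

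Il7r was also lower at 12 days. Its level was 141 CPM in 12-day liver, 107 CPM in 12-day spleen, 307 CPM in 7-week liver and 228 CPM in 7-week spleen. The lower of the 7-week values was above the higher of the 12-day values. The 7 listed NK cell and ILC markers, from cells that can carry Il7r, summed to 498 CPM in 12-day liver, led by Nkg7, and to 130.0, 61.8 and 60.6 CPM in 12-day spleen, 7-week liver and 7-week spleen, and their part in the levels was not tested. The 7-week over 12-day ratio was 2.17 in liver (2.06 to 2.29) and 2.13 in spleen (2.03 to 2.23). In cells thinned to 1000 UMIs the liver ratio was 1.87 (1.69 to 2.06), under the 2-fold mark used here, and the spleen ratio was 2.07 (1.89 to 2.27). A UMI of Il7r was found in 14.4% and 24.7% of thinned liver cells at 12 days and 7 weeks, and in 10.6% and 19.3% of thinned spleen cells.

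Tsc22d3 encodes a leucine zipper protein that carries part of the hormone's anti-inflammatory action. It stood at 173 CPM in 12-day liver, 128 CPM in 12-day spleen, 555 CPM in 7-week liver and 303 CPM in 7-week spleen. The ages did not overlap, and 7-week liver stood above every other library. The age ratio was 3.21 in liver (3.07 to 3.34) and 2.36 in spleen (2.27 to 2.46). After thinning it was 2.64 (2.44 to 2.86) and 2.26 (2.08 to 2.45). In thinned liver cells a Tsc22d3 UMI was found in 17.99% at 12 days and in 42.2% at 7 weeks. Tsc22d3 is X-linked; Xist, the RNA of the inactive X, was counted at 302 CPM in both 12-day libraries and at 127 and 150 CPM in 7-week liver and spleen, and the part of sex in these values was not tested.

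Nr3c1, which encodes the glucocorticoid receptor, was higher at 7 weeks by less than 2-fold. Its levels were 48.1 and 39.7 CPM in 12-day liver and spleen and 76.5 and 73.4 CPM in 7-week liver and spleen. The ratio was 1.59 in liver (1.44 to 1.76) and 1.85 in spleen (1.71 to 1.998). At 7 weeks the tissues' intervals overlapped.

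The other 3 target genes were sparse, and none reached a 2-fold age ratio over all retained cells. Per1, a clock repressor that glucocorticoids also induce directly, was at 8.72, 10.7, 16.5 and 14.3 CPM in 12-day liver, 12-day spleen, 7-week liver and 7-week spleen. Both 7-week values were above both 12-day values, with ratios of 1.89 in liver (1.4997 to 2.36) and 1.34 in spleen (1.14 to 1.58). In thinned cells the spleen ratio was 1.04 (0.740 to 1.46), and in thinned cells without UMIs of 6 stress genes it was 0.792 (0.485 to 1.27), so its direction was not kept, while the liver ratio was 2.44 and 2.88. Fkbp5, a co-chaperone that damps the receptor's affinity for hormone, was at 18.9, 13.6, 15.02 and 21.8 CPM in the same order. Its age ratio was 0.795 in liver (0.639 to 0.981) and 1.602 in spleen (1.39 to 1.84), opposite directions. Sgk1, a kinase that acts on ion transport and on Foxo factors, was at 18.03, 14.9, 23.3 and 12.1 CPM. Its age ratio was 1.29 in liver (1.08 to 1.55) and 0.815 in spleen (0.692 to 0.959), again in opposite directions. In thinned cells the liver ratio was 0.987 (0.647 to 1.48) and in those without stress-gene UMIs 0.684 (0.282 to 1.44), beside 0.895 and 0.614 in spleen, so the opposite directions were lost there. Fkbp5 kept both of its directions in the same cells, at 0.703 and 0.672 in liver and 1.38 and 1.35 in spleen. Sgk1 is the gene whose printed promoter holds the whole palindrome. The part of such motifs in the age ratios was not tested, and bases outside the start-site windows were not searched.

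**Figure D1:**
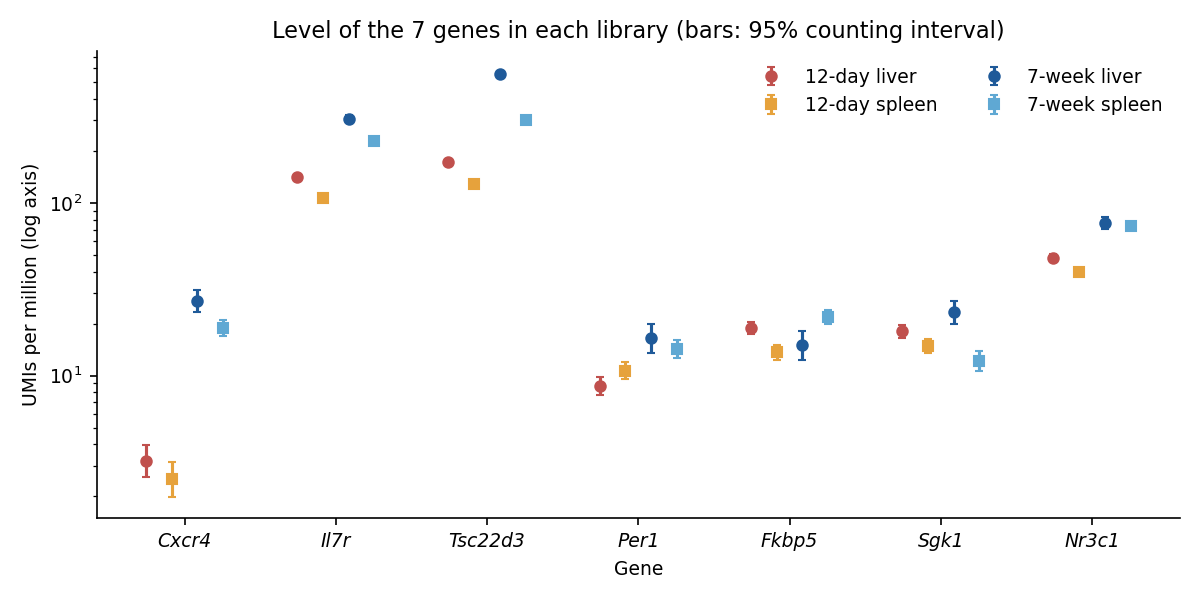
CPM of each of the 7 genes (log axis) in the 4 libraries, with 95% counting intervals as bars. Cxcr4, Il7r, Tsc22d3 and Nr3c1 are higher in both 7-week libraries, while Fkbp5 and Sgk1 are not ordered by age.

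A gene was counted as different when it reached 25 CPM in either library and a ratio of 2 in either direction. By that count, 3 of the 4 genes that reached 25 CPM in liver were lower at 12 days (Cxcr4, Il7r and Tsc22d3), where 4.99% of all 5247 genes were. In spleen 2 of 3 were (Il7r and Tsc22d3), where 2.53% of 5148 genes were, and Cxcr4 stayed out because it did not reach 25 CPM. Since the genes were chosen with these ratios in view, nothing is read from that contrast. At a minimum of 10 CPM all 7 genes entered in both tissues, and 3 of 7 were at least 2-fold lower at 12 days in each, beside 5.61% of 7829 genes in liver and 3.21% of 7726 in spleen. None was at least 2-fold higher at 12 days, beside 5.8% and 3.15% of genes. The median log2 ratio of 7 weeks to 12 days over the 7 genes was 0.92 in liver and 0.89 in spleen, and the median of all genes at that minimum lay within 0.02 of 0, as rounded.

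Between tissues of the same age none of the 7 genes reached a 2-fold ratio. Of the 7, 3 reached 25 CPM at 12 days and 4 at 7 weeks. Among all 4970 genes at that minimum at 12 days, 2.58% were past 2-fold in liver's favour and 0.966% in the spleen's. At 7 weeks the shares were 1.42% and 0.455% of 5053. With shares this low and so few genes, nothing is read from that count. Tsc22d3 was 1.35 times as high in liver as in spleen at 12 days (1.29 to 1.41) and 1.83 times at 7 weeks (1.76 to 1.91). Il7r was 1.32 times as high in liver at 12 days (1.26 to 1.39) and 1.35 times at 7 weeks (1.28 to 1.42). Cxcr4 was 1.27 times as high at 12 days, with an interval that spans 1 (0.931 to 1.75), and 1.43 times at 7 weeks (1.19 to 1.71). Fkbp5 was 1.39 times as high in liver at 12 days and 0.688 times at 7 weeks. The differences between those ratios were not tested.

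Ccr7, the receptor that takes resting lymphocytes into lymphoid tissue, was used as the mark of resting cells. A cell was Ccr7-positive when it held a Ccr7 UMI after thinning to 1000 UMIs, which left out between 87 and 496 shallower cells per library. By that gate 651 cells of 12-day liver (13.4%), 920 of 12-day spleen (16.97%), 428 of 7-week liver (19.6%) and 860 of 7-week spleen (15.4%) were positive. Among all UMIs the shares were 24.1%, 41.9%, 35.4% and 34.6%, with another order, which depth can set. The positive cells came mostly from different clusters at the 2 ages. Cluster 11, led by Grifin and Tubb2b, held 50.2% of them in 12-day liver and 58.8% in 12-day spleen, and cluster 8, led by Ly6c1, held 60.3% in 7-week liver and 52.8% in 7-week spleen. In 12-day liver a further 13.2% came from cluster 15, led by Dapl1, a resting T cell-like cluster low in Foxp3. Foxp3 in positive cells was 283, 412, 425 and 400 CPM in the order above, and the immediate early gene Fos was 361, 135, 659 and 237 CPM. The part of this makeup in the ratios within the gate was not tested beyond the values without cluster 15 given below.

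Within Ccr7-positive liver cells Il7r did not differ between ages beyond counting error, and Tsc22d3 differed by less than in all cells. Il7r was at 281 CPM in positive cells of 12-day liver and at 238 CPM in those of 7-week liver, a 7-week over 12-day ratio of 0.848 whose interval spans 1 (0.659 to 1.09). Tsc22d3 was at 637 and 764 CPM there, a ratio of 1.20 (1.03 to 1.39). Nr3c1 was at 44.5 and 42.1 CPM, a ratio of 0.944 (0.494 to 1.76). Sgk1 was at 16.9 and 4.67 CPM, lower at 7 weeks, unlike in all liver cells, but on 11 and 2 UMIs, too few for a close ratio. In Ccr7-negative liver cells the ratios were 2.18 for Il7r (1.96 to 2.43), 3.39 for Tsc22d3 (3.08 to 3.73) and 1.82 for Nr3c1 (1.49 to 2.23). The intervals of the positive and negative cells did not overlap for Il7r and Tsc22d3. Without cluster 15 the ratios in positive liver cells were 1.03 for Il7r and 1.24 for Tsc22d3.

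In spleen both genes were higher at 7 weeks in positive and in negative cells. Il7r was at 145 CPM at 12 days and 235 CPM at 7 weeks in positive cells, a ratio of 1.63 (1.30 to 2.04), and the ratio in negative cells was 2.17 (1.96 to 2.40). Tsc22d3 was at 272 and 476 CPM in positive cells, a ratio of 1.75 (1.49 to 2.06), and the ratio in negative cells was 2.50 (2.27 to 2.75). Neither gene reached 2-fold within positive spleen cells, where the share of all genes at least 2-fold lower at 12 days was 3.86% of 5212. In positive liver cells that share was 7.12% of 5268, and 1 of the 4 genes that reached 25 CPM there passed (Cxcr4).

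Cxcr4 differed between the 12-day and 7-week libraries inside and outside the gate. Thinned Ccr7-positive cells of 12-day liver, 12-day spleen, 7-week liver and 7-week spleen held 1, 3, 17 and 11 Cxcr4 UMIs, too few for a close ratio (25.9 in liver, 4.05 to 1081, and 3.92 in spleen, 1.04 to 21.9). When all UMIs of those same cells were summed, there were 9, 6, 36 and 32. Cxcr4 was then at 2.96 and 29.1 CPM in positive liver cells, a ratio of 9.80 (4.63 to 23.1), and at 1.34 and 11.3 CPM in positive spleen cells, a ratio of 8.49 (3.50 to 24.8). In negative cells the same sums gave 7.97 in liver (6.05 to 10.6) and 7.43 in spleen (5.71 to 9.78). On that scale the positive-cell ratios of Il7r were 1.06 in liver and 1.56 in spleen, and those of Tsc22d3 were 1.39 and 1.88.

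**Figure D2:**
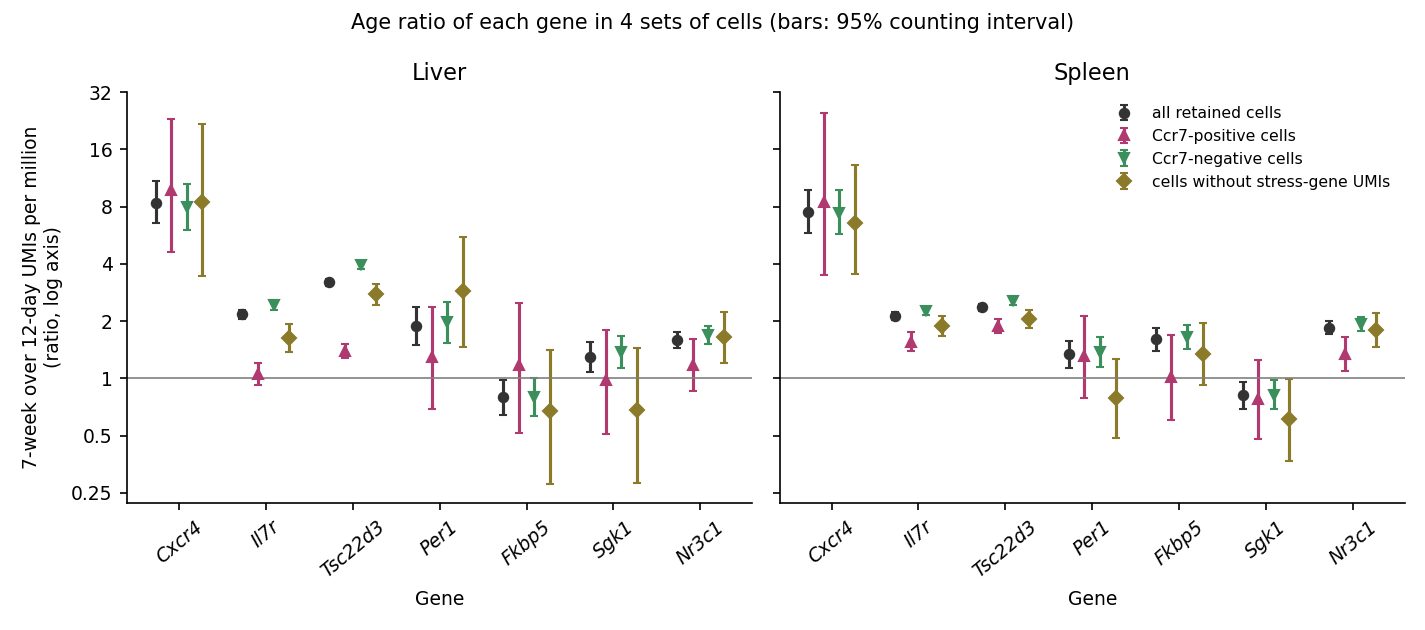
Ratio of the 7-week to the 12-day level (log axis) for each gene in liver and spleen, in all retained cells, in Ccr7-positive and Ccr7-negative cells (all UMIs of the cells gated after thinning) and in cells without stress-gene UMIs, with 95% counting intervals. In liver the Il7r ratio is near 1 in positive cells and above 2 in negative cells, while Cxcr4 lies between 7.97 and 9.80 in all 4 sets.

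Read the other way, the gate separated Tsc22d3 more at 12 days than at 7 weeks. Tsc22d3 in positive cells was 3.66 times its level in negative cells in 12-day liver (3.24 to 4.14) and 2.12 times in 12-day spleen (1.82 to 2.46). At 7 weeks the ratio was 1.30 in liver (1.14 to 1.47) and 1.48 in spleen (1.33 to 1.66). Negative cells of 12-day liver and 12-day spleen held the lowest levels, 174 and 128 CPM, against 590 and 321 CPM in negative cells of 7-week liver and spleen. Il7r was 1.66 times as high in positive cells of 12-day liver (1.40 to 1.96) and 0.645 times in 7-week liver (0.518 to 0.796), opposite directions. In spleen both Il7r intervals span 1, at 1.18 and 0.885. Nr3c1 was at 0.426 times its negative-cell level in positive cells of 7-week liver (0.247 to 0.694), and the other 3 libraries' intervals span 1.

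**Figure D3:**
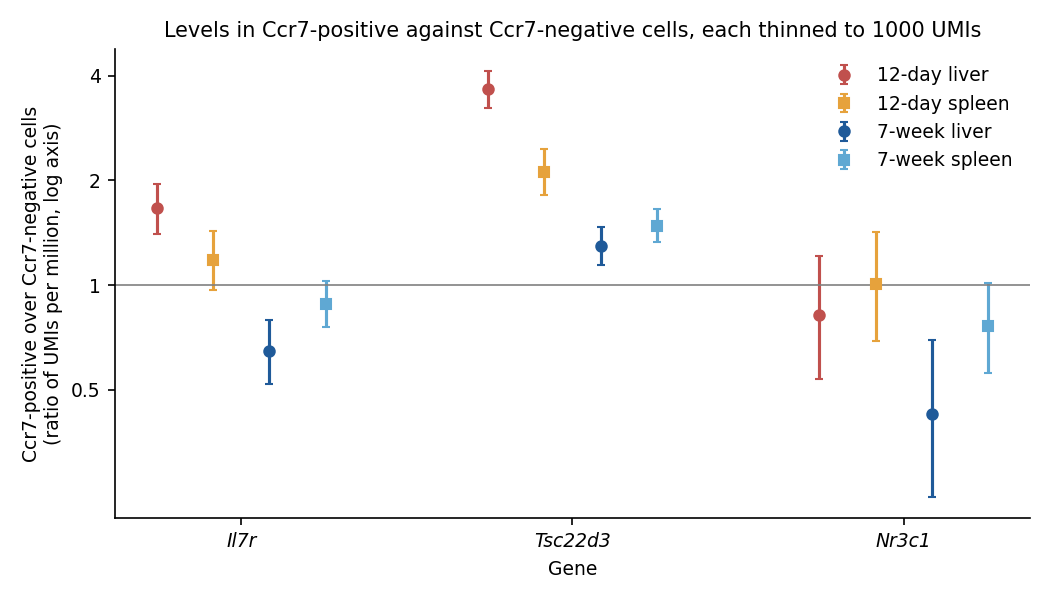
Ratio of the level in Ccr7-positive to that in Ccr7-negative cells (log axis), each cell thinned to 1000 UMIs, for Il7r, Tsc22d3 and Nr3c1 in the 4 libraries with 95% counting intervals. Tsc22d3 lies above 1 in every library, highest in 12-day liver at 3.66, and Il7r lies on opposite sides of 1 in 12-day and 7-week liver.

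Among positive cells of the 2 tissues at 12 days, Tsc22d3 was 2.35 times as high in liver as in spleen (2.0004 to 2.76) and Il7r 1.94 times (1.55 to 2.45). At 7 weeks the same ratios were 1.61 (1.38 to 1.86) and 1.01 (0.792 to 1.29). Cluster 15, low in Foxp3, held 13.2% of the positive cells of 12-day liver and 3.91% of those of 12-day spleen. Without it, 1 of the 3 genes that reached 25 CPM at 12 days was at least 2-fold higher in liver, beside 3.15% of 5083 genes. Beyond that count, its part in these ratios and in those of positive to negative cells was not tested.

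The same genes were then followed through 15 comparisons of 1 cluster between ages within 1 tissue, each with at least 50 cells at both ages. Cxcr4 was higher at 7 weeks in all 15, by a median of 5.39-fold, with an interval above 1 in 8 and with no UMI at 12 days in 3. Examples were cluster 7 of liver, led by Nebl and Il1rl1, at 3.57 CPM at 12 days and 40.8 CPM at 7 weeks, and cluster 11 of spleen at 1.38 and 16.4 CPM. Tsc22d3 was also higher at 7 weeks in all 15, by a median of 2.49-fold (range 1.17 to 3.34), with an interval above 1 in 14. The exception was cluster 8 of liver, where it was at 618 and 724 CPM. Il7r was higher at 7 weeks in 13 of 15, by a median of 1.36-fold, with an interval above 1 in 8 and below 1 in 1, again cluster 8 of liver (398 CPM at 12 days, 254 CPM at 7 weeks). Nr3c1 was higher in 15 of 15 with an interval above 1 in 5. Cells do not replicate a library, and these comparisons share the same 4 libraries.

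In 12-day liver Tsc22d3 was at 693 CPM in the resting T cell-like cluster 15, 624 CPM in cluster 11 and 82.4 CPM in the effector Treg-like cluster 1, led by Ccl5 and Gzmb. It was lowest in cluster 6, effector Treg-like and led by Ccl4 and Ccl3, at 19.98 CPM. Il7r in those 4 clusters was at 548, 242, 115 and 59.3 CPM. In 7-week liver Il7r was highest in cluster 2, led by Gbp2b and Gpr15, at 425 CPM, above the 254 CPM of the Ccr7-rich cluster 8. Cells in which 1 of Il7r and Tsc22d3 was found had more of the other. In cells thinned to 2000 UMIs with a Tsc22d3 UMI, Il7r was 2.15 times as high as in cells without one in 12-day liver (1.95 to 2.38), 1.54 times in 12-day spleen, 1.32 times in 7-week liver and 1.63 times in 7-week spleen. The ratio of Cxcr4 between the same cells had an interval spanning 1 in all 4 libraries (1.23, 0.967, 1.27 and 1.003).

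**Figure D4:**
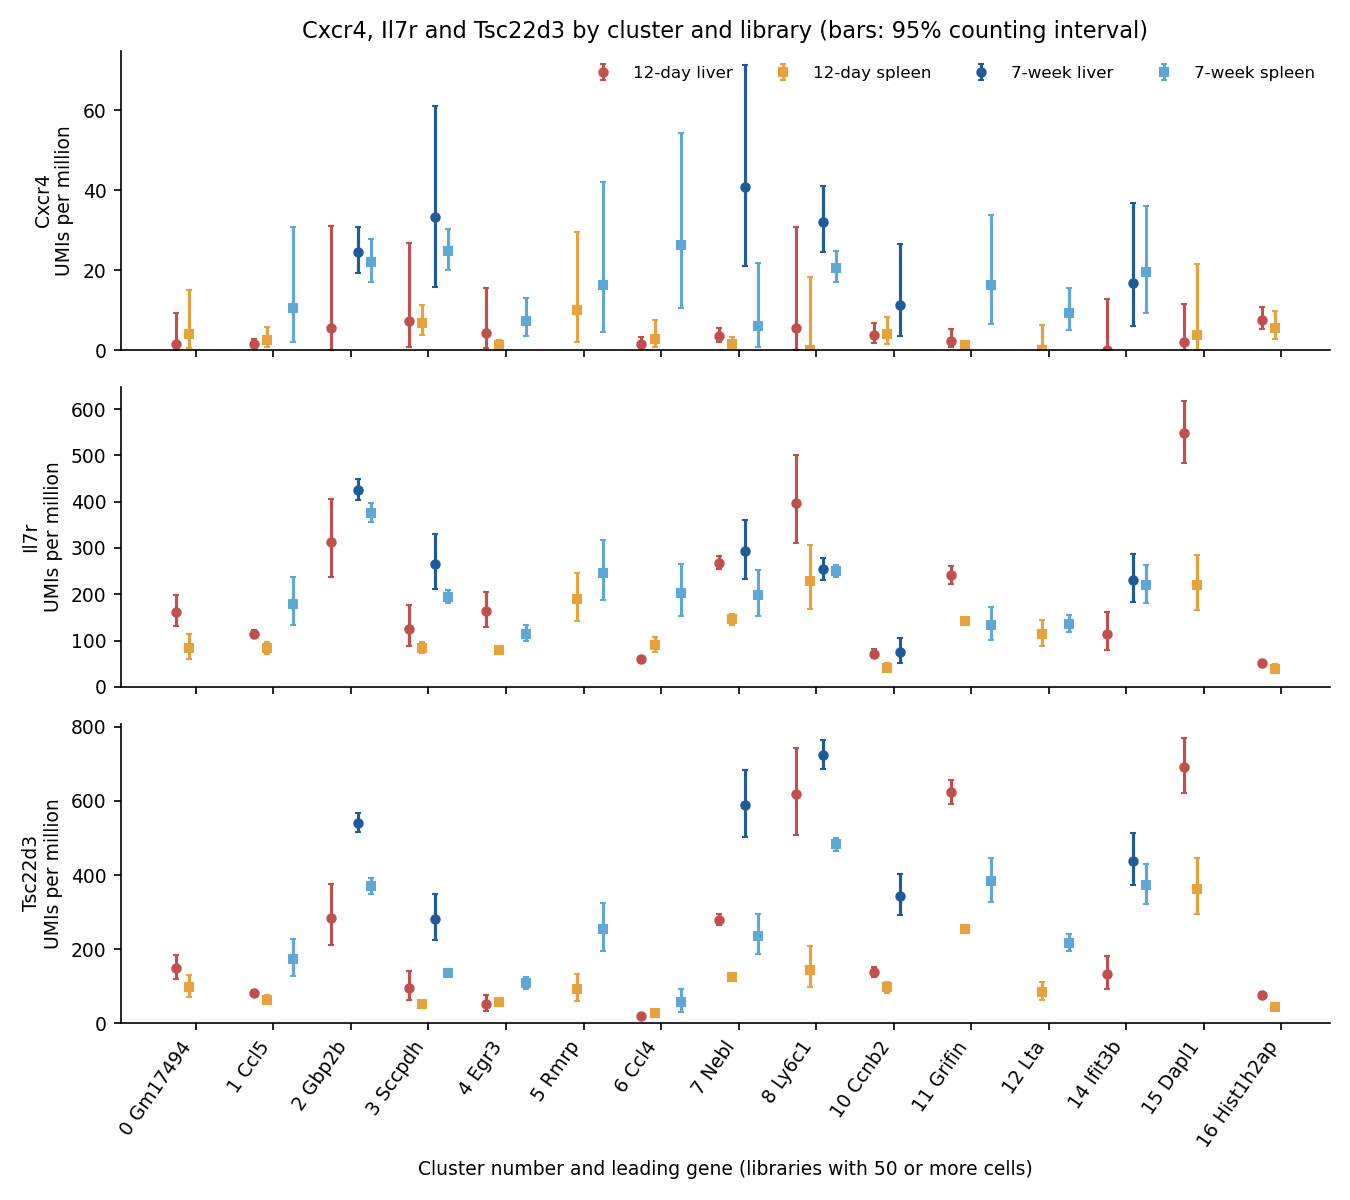
CPM of Cxcr4, Il7r and Tsc22d3 in each cluster and library with at least 50 cells, with 95% counting intervals. Tsc22d3 and Cxcr4 are higher at 7 weeks than at 12 days in each cluster measured at both ages in 1 tissue, and Il7r is in 13 of 15 such comparisons.

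Other genes known to be induced by glucocorticoids went both ways, with more of them higher at 7 weeks. Of 26 listed, 15 reached 10 CPM in liver. Of these, 13 were higher at 7 weeks, 5 of them by 2-fold or more, and 1 was at least 2-fold lower, with a median log2 ratio of 0.83. In spleen 11 of 15 were higher at 7 weeks, 4 by 2-fold or more, and 1 was at least 2-fold lower, with a median of 0.35. Among all genes at 10 CPM or more, 5.61% in liver and 3.21% in spleen were at least 2-fold higher at 7 weeks. The shares at least 2-fold lower were 5.8% and 3.15%. Btg1, an inhibitor of proliferation, was at 288 and 354 CPM in 12-day liver and spleen and at 1083 and 845 CPM at 7 weeks. Dusp1, a phosphatase that switches off MAP kinases, was at 143 and 69.4 CPM at 12 days and 400 and 200 CPM at 7 weeks, ratios of 2.79 and 2.88. Cebpb, a transcription factor gene, was 1.86 times as high at 7 weeks in liver. In spleen it was below 10 CPM at both ages, at 0.532 CPM at 12 days and 7.26 CPM at 7 weeks. Mt1, a metallothionein gene, went the other way, at 72.1 and 16.3 CPM at 12 days and 16.02 and 6.35 CPM at 7 weeks. The other genes past 2-fold upward, named after their values were seen, were Pik3ip1 (2.46), Tle4 (2.62) and Btg2 (2.38) in liver and Tle4 (2.16) and Il1r2 (3.52) in spleen. Klf9, a direct receptor target named in the same way, was below 10 CPM in every library, with ratios of 2.58 and 2.65. Il1r2 was among the leading genes of cluster 3, which held 405 retained cells of 12-day spleen and 1173 of 7-week spleen. Genes of acute stress were also higher at 7 weeks, as given below. The part of stress and of cluster makeup in this list's ratios was not tested.

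The receptor's chaperones and cofactors were higher at 7 weeks, mostly by less than 2-fold. Of 15 listed, 13 reached 10 CPM in each tissue, 11 of them higher at 7 weeks in each, and 1 in each by 2-fold or more. Of all genes at that minimum, 5.61% in liver and 3.21% in spleen were at least 2-fold higher at 7 weeks. The median log2 ratio was 0.62 in liver and 0.61 in spleen. Hsp90aa1, the inducible heat shock protein 90 that holds the receptor ready for hormone, had ratios of 1.53 in liver and 2.01 in spleen. Stip1, which hands the receptor from one chaperone to the next, had 1.95 and 1.91, and Ptges3, the p23 co-chaperone, had 1.63 and 1.73. The coactivator Ep300 had 1.75 and 1.57. The gene past 2-fold in liver was the coactivator Ncoa1, named after its values were seen, at 5.67 and 13.9 CPM. Several of these are also heat shock genes. Of 5 steroid synthesis genes, 1 reached 10 CPM anywhere: Cyp11a1, the enzyme that starts steroid synthesis from cholesterol, at 11.7 CPM in 12-day liver and 0.858 CPM in 7-week liver.

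In the IL-7 and common gamma-chain receptor pathway, 14 of the 18 genes measured in liver and 14 of the 17 in spleen were higher at 7 weeks, with medians of 0.53 and 0.30 on the log2 scale. In liver 2 of 18 reached 2-fold: Stat5b, which carries the receptor's signal to the nucleus (47.5 and 108 CPM, ratio 2.27), and the survival gene Bcl2 (45.1 and 107 CPM, ratio 2.36). In spleen these 2 had ratios of 1.41 and 1.13, and Il4ra and Stat5a had 1.54 and 1.52. The gene past 2-fold in spleen was the survival gene Mcl1, named after its values were seen, at 55.1 and 127.6 CPM. Foxo1 and the other 9 listed genes of its resting-cell program were all higher at 7 weeks in liver, 1 of them by 2-fold (Bach2, a repressor of effector genes, 2.96), and 5 of 10 were in spleen. Klf2 was 1.91 times as high at 7 weeks in liver and 0.984 times in spleen. Within Ccr7-positive liver cells 3 of these 10 were higher at 7 weeks. Over all retained cells, 5.61% of genes at 10 CPM or more in liver and 3.21% in spleen were at least 2-fold higher at 7 weeks.

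The other chemokine receptors went both ways. Of 17 genes of the CXCR4 axis and chemokine receptors measured in liver, 10 were higher at 7 weeks and 7 lower, with a median log2 ratio of 0.18, and in spleen 7 were higher and 10 lower. Cxcr6 and Ccr8, receptors of tissue Treg cells, were at 129 and 151 CPM in 12-day liver and at 21.9 and 23.5 CPM in 7-week liver. In spleen Cxcr6 was at 19.8 and 5.39 CPM. Ccr6, a mucosal homing receptor, was higher at 7 weeks, 3.05 times in liver and 1.41 times in spleen. Of 16 clock genes, 7 in liver and 5 in spleen reached 10 CPM. All 7 in liver and 3 of 5 in spleen were higher at 7 weeks, with median log2 ratios of 0.60 and 0.24. In liver 2 of the 7 were at least 2-fold higher, beside 5.61% of all genes at that minimum. In spleen 0 of 5 were, beside 3.21%. Nr1d2, named after its values were seen, was 1 of the 2 in liver, at 3.50 and 12.3 CPM. Arntl and Cry1, the activator and a repressor of the clock, had ratios of 1.41 and 1.51 in liver and 1.18 and 0.942 in spleen, and the hour at which mice were killed is not stated in the labels.

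**Figure D5:**
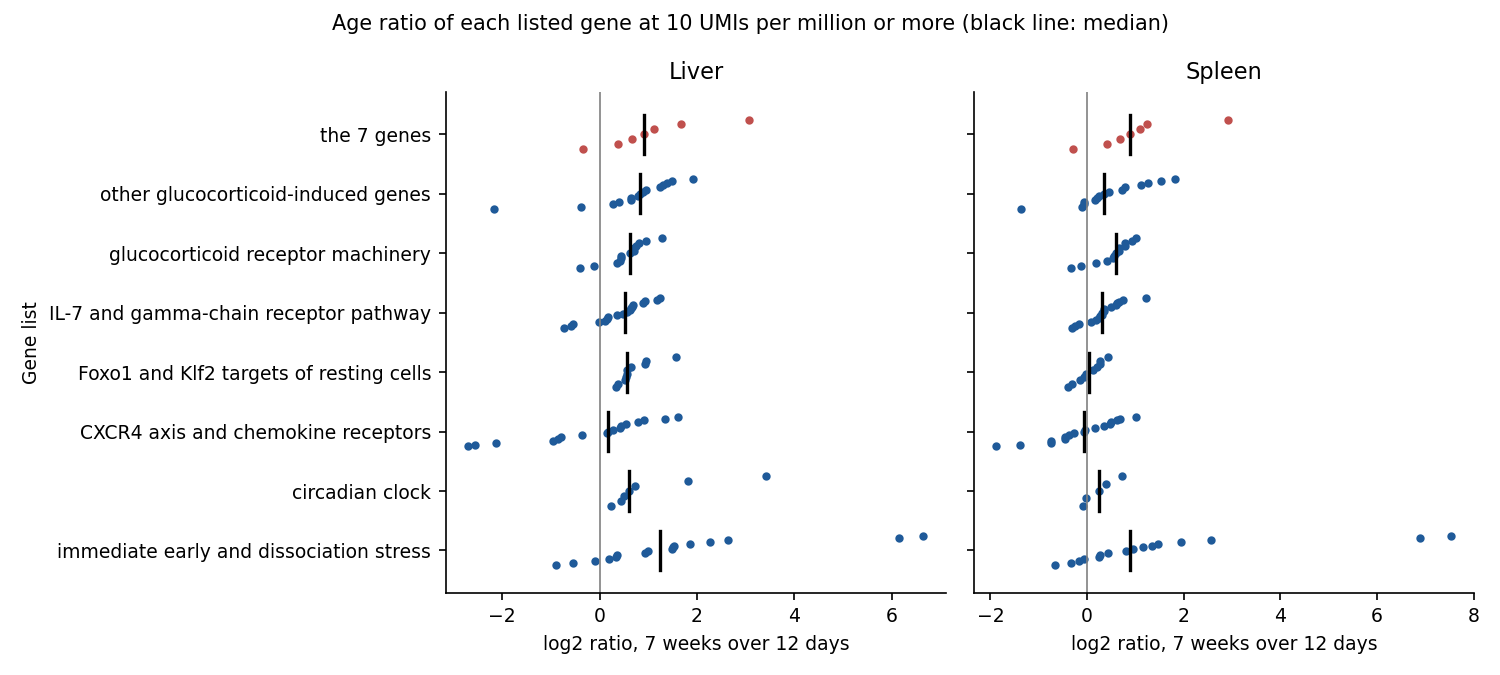
Log2 ratio of 7 weeks to 12 days for each gene with 10 CPM or more, by gene list, in liver and spleen; the black line is each list's median. The medians are above 0 for every list drawn in liver, where the immediate early and dissociation stress genes have the highest median, 1.25; in spleen their median is 0.88 and that of the 7 genes 0.89.

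Genes of acute stress were higher at 7 weeks beside these genes. Of 18 immediate early and dissociation stress genes, 16 reached 10 CPM, and 8 in liver and 7 in spleen were at least 2-fold higher at 7 weeks. The shares of all genes at that minimum were 5.61% in liver and 3.21% in spleen. Jun was at 61.6 and 57.9 CPM in 12-day liver and spleen and at 385 and 223 CPM at 7 weeks, and Fos had ratios of 3.61 and 2.24. The heat shock genes Hsph1 and Dnajb1 had ratios of 4.82 and 2.90 in liver and 5.92 and 2.78 in spleen. Hspa1a, named after its values were seen, was at 0.208 and 0.0997 CPM at 12 days and at 14.7 and 11.8 CPM at 7 weeks. In thinned cells with no UMI of 6 such genes (Fos, Jun, Hsph1, Dnajb1, Hspa1a and Hspa1b), which were 71.0%, 78.1%, 31.3% and 46.9% of thinned cells in the 4 libraries, the 7-week over 12-day ratio of Cxcr4 was 8.41 in liver (3.45 to 21.8) and 6.58 in spleen (3.54 to 13.2). Tsc22d3 had 2.77 and 2.05 there, and Il7r 1.64 and 1.89. Mitochondrial RNA was a median of 1.99%, 1.72%, 1.17% and 1.41% of a cell's UMIs, and cells with an Mki67 or Top2a UMI after thinning were 9.74%, 4.74%, 3.76% and 2.24%. Beyond those counts, the part of stress, RNA quality and proliferation in the age ratios was not tested.

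Across 8 profiles (Ccr7-positive and Ccr7-negative thinned cells of each library) and 5682 genes, the 3 leading genes were compared with all others. Pearson's r of log2 levels was used, as a description, and the profiles share 4 libraries. In the positive profiles of 12-day liver, 12-day spleen, 7-week liver and 7-week spleen, Cxcr4 rested on 1, 3, 17 and 11 UMIs. Fkbp5 rested there on 4, 7, 5 and 9 UMIs, and Sgk1 on 11, 11, 2 and 9. No counting error is given for r, so values with Cxcr4, Fkbp5 or Sgk1 are rough. Closest to Cxcr4 were Alkbh5 (r = 0.988), Ndufb1-ps, Gbp2b, Ifi203 and the nuclear RNA Malat1 (0.977), which was at 2348 and 2301 CPM at 12 days and 4812 and 4159 CPM at 7 weeks. Among the closest to Tsc22d3 were Phf20l1 (0.990), Foxo1 (0.969), Rflnb and Cd69 (0.964). Among the closest to Il7r were Runx1 (0.954), Tnrc6b, Skiv2l and Nfe2l2. Between the 7 genes themselves, Il7r and Tsc22d3 had r = 0.818, Cxcr4 had 0.602 with Il7r and 0.516 with Tsc22d3, and Tsc22d3 had -0.53 with Fkbp5 and -0.38 with Sgk1.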

How the data were processed

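Single-cell RNA-seq was made from sorted CD4+ Foxp3GFP+ cells in 4 libraries, grouped by the age and tissue in the labels. The deposited matrices hold whole-number UMI counts per gene and cell. Per the file headers the software was Cell Ranger 4.0.0; the submitters' processing notes also list Seurat 4.0.2 and mm10. Cells needed 500 genes and at most 10% mitochondrial UMIs; scanpy 1.11.5 clustering (2000 variable genes without the 7, 30 components, 15 neighbours, resolution 1) removed 4 clusters of other lineages. Scrublet's automatic threshold marked at most 0.08% of cells and had not worked, so the highest scores were removed, at 0.8% per 1000 cells. Python 3.11.15, NumPy 2.4.6, SciPy 1.17.1 and pandas 2.3.3 were used, with edgeR 4.0.16 for 1 alternative scaling.

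Levels are UMIs per 1000000 UMIs with exact Poisson 95% intervals, ratios have exact conditional binomial intervals and shares have Clopper-Pearson intervals. With 1 library per group these cover counting error only, not animals, and no test was made. Thinning drew 1000 UMIs per cell without replacement. The calculations were tested on simulated data. The genes and gene lists were chosen with earlier results of these data known. Genes named from a list were up to 4 with the largest log2 age ratio, in absolute size and averaged over both tissues, among those at 25 CPM or more in any library; others are marked. Start-site sequences came from RefSeq (GRCm38.p6). The sequence and position of 1 of the 7 genes, and a few other results, are not reported here.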

Additional observations from a re-analysis of the deposited data

Results flagged for a closer look

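The liver and the spleen gave opposite age directions for 2 genes, and the difference was not tested. The ratio of 12 days to 7 weeks for Fkbp5 was 1.26 in liver and 0.624 in spleen, and for Sgk1 it was 0.773 in liver and 1.23 in spleen. For Sgk1 this was lost in thinned cells: with cells thinned to 1000 UMIs the values were 1.01 and 1.12, and in those without stress-gene UMIs 1.46 and 1.63, the same direction in both tissues. The ratio of liver to spleen for Fkbp5 was 1.39 at 12 days and 0.688 at 7 weeks, again opposite and not tested. The ratio of Il7r in Ccr7-positive to Ccr7-negative cells was 1.66 in 12-day liver and 0.645 in 7-week liver, which was not tested either. Each side of these contrasts rests on 1 library.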

How the results depend on the processing

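No paired analysis was possible because each group has 1 library. Of 816 values recomputed under the alternatives, 722 stayed within counting error or 1.5 times, 94 moved and 0 reversed a called direction. Directions that were not called could change, as given below for Ccr7-positive cells. Over 12 alternatives the 7-week over 12-day ratio ranged in liver from 7.65 to 12.3 for Cxcr4, 1.64 to 2.39 for Il7r and 2.64 to 3.66 for Tsc22d3, and in spleen from 6.58 to 8.66, 1.89 to 2.22 and 2.05 to 2.46. With thinned cells free of UMIs of the 6 stress genes, chosen after seeing the data, the genes at least 2-fold lower at 12 days went from 3 to 1 in liver and from 2 to 1 in spleen, and the median log2 difference between tissues at 7 weeks from 0.43 to 0.20. Of these, Cxcr4 in liver left the count by falling under 25 CPM, with a ratio of 8.41. Il7r fell under 2-fold in both tissues. At 10 CPM the counts were 3 and 2 of 7, beside 7.63% and 3.6% of all genes. The 3 in liver held Per1, with a ratio of 2.88, in place of Il7r. The spleen count was also 1 without cells holding Mki67 or Top2a. In Ccr7-positive liver cells the count lower at 12 days was 0 when cells were thinned to 2000 UMIs, where Cxcr4 was under 25 CPM with a ratio of 14.9. When abundant gene classes were left out of the totals, 1 gene was counted as higher at 12 days: Sgk1, at 3.51 times its 7-week level. Its direction was the same in the main setting, at 16.9 and 4.67 CPM on 11 and 2 UMIs, under the minimum of 25 CPM. In the main setting of that gate 7.12% of 5268 genes were at least 2-fold lower at 12 days and 7.74% at least 2-fold higher. In these cells the median log2 ratio of 12 days to 7 weeks was -0.26, -0.50 with Ccr7 read among all UMIs and -0.77 with another thinning seed. In spleen that gate's count lower at 12 days was 0, and 1 with Ccr7 read among all UMIs. The cause of these changes was not tested. Depth limits the ratios within the gate: thinned Ccr7-positive cells held 1 Cxcr4 UMI in 12-day liver and 2 Sgk1 UMIs in 7-week liver. In Ccr7-positive liver cells Il7r and Nr3c1 kept the direction of their age ratio in 3 of 10 alternatives, and Sgk1 in 6 of 10. In Ccr7-positive spleen cells Per1 kept its direction in 5 of 10. Cxcr4 and Tsc22d3 kept theirs in 10 of 10 in each tissue.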
